A study of Mus musculus with 6 samples.

Results

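The 10 genes described here belong to the Notch pathway and were taken by symbol from the 14546 genes of the deposited nascent transcription table. They are the receptors *Notch1*, *Notch2* and *Notch3*, the ligands *Dll1*, *Jag1* and *Jag2*, the DNA-binding partner *Rbpj* and the target genes *Hes1*, *Hey1* and *Heyl*. All 10 were listed, all 10 were among the 12451 genes that passed the filter on low values, and all 10 had a pausing index in every library, as did 11698 genes in all. PRO-seq, which maps transcribing RNA polymerases through the nascent RNA that they extend in isolated nuclei, was performed in proliferating muscle stem cells (MuSCs) of the mouse. The study asked how transcription differed between MuSCs with and without *Kmt5b*, which encodes a histone methyltransferase and is named *Suv4-20h1* in the labels. The 3 libraries of the control group (Ctrl) carry the genotype Pax7CreERT/Suv4-20h1WT and the 3 libraries of the mutant group (Kmt5b sKO) the genotype Pax7CreERT/Suv4-20h1KO. Both genotypes thus hold Pax7CreERT, a Cre recombinase driven by *Pax7* and activated by tamoxifen, which restricts deletion to cells that express *Pax7*. The labels give no age or sex, and the cells had been isolated from muscle by magnetic sorting and expanded in culture.

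Transcription was counted in the TSS region, the first 400 nt of 1 isoform per gene, and in the gene body, which covers the rest of the isoform. TSS values are RPM, here TSS reads scaled to a common total of TSS reads in each library. Gene body values are TPM, which were scaled separately and also divide by length. The pausing index is the TSS value divided by the gene body value. Per library, TSS reads of the listed genes numbered 926904 to 3246052 and those of gene bodies 7425413 to 16249258, and a value of the 10 genes rested on 6 to 1233 TSS reads and on 16 to 8837 gene body reads. Because each region of each library was scaled to its own total, a change in total transcription cannot be seen. The same holds for a shift of all genes between TSS region and gene body, in the TSS values and in the pausing index. In bulk libraries, fewer cells that transcribe a gene and fewer polymerases per cell cannot be told apart. *Kmt5b* itself was at 30.6, 35.4 and 38.5 TPM in the Ctrl libraries and at 37.8, 35.0 and 42.6 TPM in the Kmt5b sKO libraries. Nascent RNA outside the deleted part does not check the genotype, and the extent of the deletion is not given in the sources used here.

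The cell type was checked with lists of markers, summed in the gene body. All 9 markers of muscle stem cells and myoblasts were listed, with *Myod1* at 855 to 1328 TPM and *Pax7* at 25.5 to 53.7 TPM, and their sum was 1672 to 2434 TPM in Ctrl against 2152 to 2978 TPM in Kmt5b sKO. The sum of 9 markers of differentiating muscle was 2057 to 3610 TPM in Ctrl compared with 4047 to 5375 TPM in Kmt5b sKO, so that the groups did not overlap. Taken singly, *Acta1*, *Myh3*, *Myl1*, *Tnnt3* and *Tnnc1* did not overlap, whereas *Myog*, *Mymk*, *Ckm* and *Mymx* did. In the gene body 21.4% of all tested genes did not overlap. Ctrl 3 was the lowest of the 6 libraries in both sums but not for every marker, as *Vcam1* (39.8 TPM) and *Mymx* (368 TPM) were highest there. Of 6 endothelial markers, 3 were listed with a sum of 2.5 to 4.23 TPM in Ctrl versus 4.38 to 5.05 TPM in Kmt5b sKO, without overlap, and *Kdr*, *Tie1* and *Emcn* were not listed. Of 6 fibro-adipogenic markers, 3 were listed with a sum of at most 8.77 TPM, and *Dcn*, *Pi16* and *Dpp4* were not listed. Of 5 immune markers only *Cd68* was listed, at 214 to 402 TPM, while *Ptprc*, *Csf1r*, *Adgre1* and *Lyz2* were not. Mural markers, 4 of 5 listed and mostly *Cspg4*, summed to 26.9 to 51.1 TPM in Ctrl against 57.1 to 63.8 TPM in Kmt5b sKO, with *Myh11* below 1 TPM throughout. All 4 Schwann cell markers were listed and summed to 8.75 to 11.7 TPM in Ctrl compared with 15.8 to 25.8 TPM in Kmt5b sKO. The part of these cell markers in the values below was not tested.

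Notch receptors are bound by DLL and JAG ligands on a neighbouring cell and are then cut by proteases, which releases an intracellular domain. This domain enters the nucleus, joins the DNA-binding protein RBPJ and its coactivator MAML, and switches on target genes, among them the HES and HEY repressors. In MuSCs the pathway is known for holding the cells in quiescence and for delaying differentiation.

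The promoters of the receptors and of *Rbpj* are shown because the TSS regions compared below start in them, because *Rbpj* was the gene of the set whose TSS values separated the genotypes, and because RBPJ binds DNA at the core motif TGGGAA. Each sequence is RefSeq's for GRCm38.p6, runs from 250 nt before to 50 nt after the annotated start, and is written 5′ to 3′ on the strand of the gene. Capitals mark TGGGAA on either strand, where TTCCCA is the match to the opposite strand. RefSeq promoters were matched for 7 of the 10 genes, and *Hes1*, *Hey1* and *Heyl* had no entry. The start used for *Dll1*, *Jag1* and *Jag2* lay 124 to 281 nt from the one listed by the authors, and their sequences are not printed.
Notch1, chr2:26503773-26504072, minus strand: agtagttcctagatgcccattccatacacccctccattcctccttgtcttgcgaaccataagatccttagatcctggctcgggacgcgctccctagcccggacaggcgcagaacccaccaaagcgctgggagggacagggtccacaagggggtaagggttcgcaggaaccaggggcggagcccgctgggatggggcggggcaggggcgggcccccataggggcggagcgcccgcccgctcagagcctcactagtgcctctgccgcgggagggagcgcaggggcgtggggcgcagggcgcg
Notch2, chr3:98013288-98013587, plus strand: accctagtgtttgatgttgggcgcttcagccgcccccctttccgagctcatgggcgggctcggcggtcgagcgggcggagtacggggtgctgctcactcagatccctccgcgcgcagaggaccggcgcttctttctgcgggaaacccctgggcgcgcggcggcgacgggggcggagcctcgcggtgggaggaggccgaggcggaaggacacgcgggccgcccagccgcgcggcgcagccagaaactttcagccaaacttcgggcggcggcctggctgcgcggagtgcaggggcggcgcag
Notch3, chr17:32166841-32167140, minus strand: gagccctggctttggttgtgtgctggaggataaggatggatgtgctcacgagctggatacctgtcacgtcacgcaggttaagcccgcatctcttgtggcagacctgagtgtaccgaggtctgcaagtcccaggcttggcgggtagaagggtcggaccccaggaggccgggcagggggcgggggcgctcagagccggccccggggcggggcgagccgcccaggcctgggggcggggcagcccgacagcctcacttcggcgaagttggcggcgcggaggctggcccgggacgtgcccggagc
Rbpj, chr5:53590096-53590395, plus strand: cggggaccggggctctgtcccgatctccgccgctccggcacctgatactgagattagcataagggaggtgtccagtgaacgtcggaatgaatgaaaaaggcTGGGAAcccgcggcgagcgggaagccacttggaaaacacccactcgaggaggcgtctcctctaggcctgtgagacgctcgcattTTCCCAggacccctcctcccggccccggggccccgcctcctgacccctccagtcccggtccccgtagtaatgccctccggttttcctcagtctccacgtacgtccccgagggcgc

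The *Rbpj* promoter held 2 matches to TGGGAA, 1 on each strand, which start 149 nt and 65 nt before the annotated start. The promoters of *Notch1*, *Notch2*, *Notch3*, *Dll1*, *Jag1* and *Jag2* held 0 matches. Of 32851 promoters of the same length, 25.6% held at least 1 match on either strand, and 6.38% held the longer form GTGGGAA, which contains the shorter one and was in 0 of the 7 promoters. A match is only a run of letters and does not show binding. All 4 printed promoters are rich in G and C, with a GC share of 68.3% in *Notch1*, 73.0% in *Notch2*, 70.0% in *Notch3* and 64.7% in *Rbpj*, whereas the median over all promoters was 52.7%. They held 23, 41, 25 and 26 CG dinucleotides in this order, against a median of 7.

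None of the 10 genes passed the test between Kmt5b sKO and Ctrl in either region (limma, adjusted p under 0.1). In the TSS region 0 of 10 were called against 1.66% of all tested genes, 1 of 10 had an unadjusted p under 0.05 (*Rbpj*) against 11% of all tested genes, and 1 of 10 did not overlap between the genotypes (*Rbpj*) against 15.6%. In the gene body 0 of 10 were called against 2.99%, 1 of 10 had an unadjusted p under 0.05 (*Jag2*) against 15.9%, and 1 of 10 did not overlap (*Jag2*) against 21.4%. For the pausing index 0 of 10 were called, as were 0% of all genes, 0 of 10 had an unadjusted p under 0.05 against 3.86%, and 2 of 10 did not overlap (*Notch1* and *Rbpj*) against 9.02%. These shares lie near those of all genes. edgeR on the recovered reads called 0 of 10 in the TSS region, where it called 2.24% of all genes, and 0 of 10 in the gene body, where it called 6.01%. At an unadjusted p under 0.05 edgeR gave 0 of 10 in the TSS region, against 11.1% of all tested genes, and 3 of 10 in the gene body (*Jag2*, *Notch3* and *Heyl*), against 17.3%. The median log2 difference of the 10 genes was 0.17 in the gene body and 0.07 in the TSS region, and the medians over all tested genes were 0.02 and 0.08. A p that misses the threshold does not show that transcription was equal, and the 95% intervals in the plot of differences are wide for several genes, as with −2.03 to 1.31 for *Hey1* in the gene body.

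**Figure D1:**
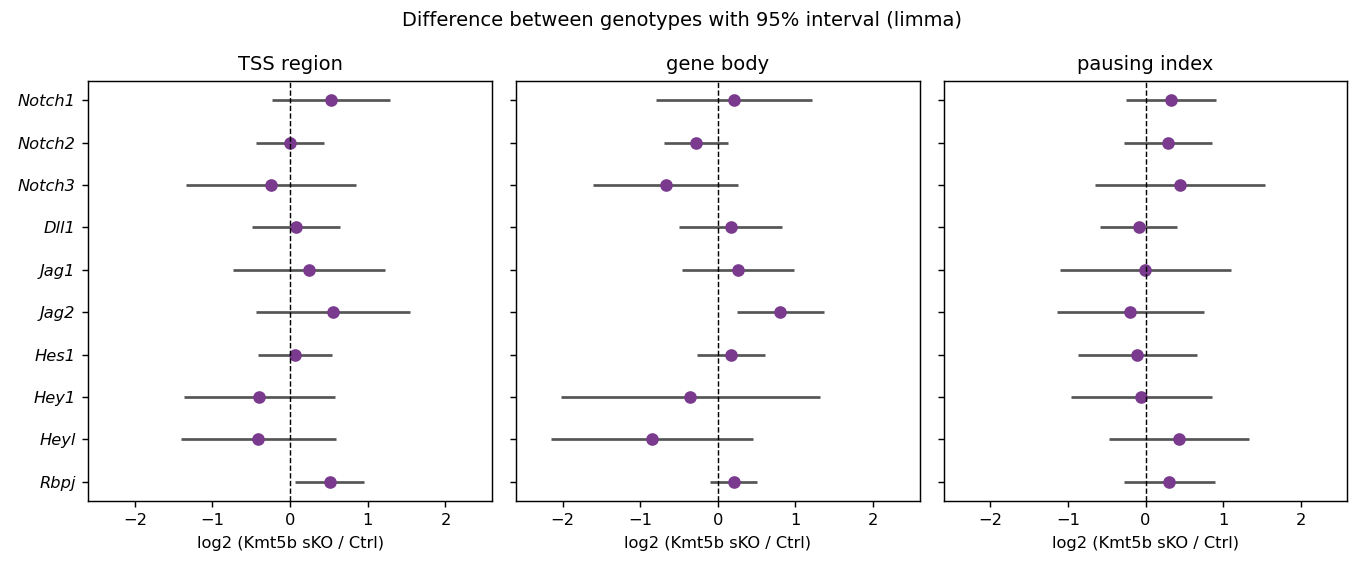
Difference between genotypes for the 10 genes, as log2 of Kmt5b sKO over Ctrl (horizontal axis) in the TSS region, the gene body and the pausing index. Points are limma estimates and lines their 95% intervals (3 libraries per genotype), and only *Rbpj* in the TSS region and *Jag2* in the gene body have an interval that does not include 0.

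Among the receptors, *Notch2* had higher TSS values than *Notch1* and *Notch3* in every library, while *Notch3* had the highest gene body values. *Notch1* (chr2:26457903-26503822, minus strand, 34 exons) was transcribed in its gene body at 36.4, 36.4 and 11.8 TPM in Ctrl 1 to 3 versus 22.5, 30.1 and 36.3 TPM in Kmt5b sKO 1 to 3. Its TSS values were 24.0, 30.5 and 9.28 RPM in Ctrl against 21.0, 29.1 and 34.5 RPM in Kmt5b sKO. Ctrl 3 was thus the lowest library in both regions, and the other 5 libraries overlapped. The log2 difference was 0.21 in the gene body (SE 0.43, 95% interval −0.79 to 1.21, limma adjusted p = 0.88) and 0.53 in the TSS region (SE 0.36, limma adjusted p = 0.67), and without Ctrl 3 the gene body difference was −0.32. *Notch2* (chr3:98013538-98150361, plus strand, 34 exons), which signals beside NOTCH1 in MuSCs, gave 43.7, 43.8 and 30.9 TPM in Ctrl compared with 29.98, 29.7 and 36.5 TPM in Kmt5b sKO, a log2 difference of −0.28 (SE 0.18, 95% interval −0.70 to 0.13, limma adjusted p = 0.51). Its TSS values, 190, 152 and 146 RPM against 185, 154 and 149 RPM, were nearly equal between genotypes, with a log2 difference of 0.0018 and a 95% interval of −0.44 to 0.44. The gene body of *Notch2* holds 2 unclassified transcripts on its own strand, *Gm42819* over 5121 nt and *Gm42820* over 3063 nt, whose reads cannot be told apart from those of *Notch2*.

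*Notch3* (chr17:32120820-32166880, minus strand, 33 exons) encodes a receptor that is expressed in MuSCs and in mural cells of vessels. Its gene body stood at 131, 107 and 43.3 TPM in Ctrl 1 to 3 versus 51.5, 42.9 and 67.9 TPM in Kmt5b sKO 1 to 3. Ctrl 1 and Ctrl 2 lay above all Kmt5b sKO libraries, while Ctrl 3 lay among them. The mean was 93.9 ± 45 TPM in Ctrl against 54.1 ± 13 TPM in Kmt5b sKO (SD, n = 3 each), a log2 difference of −0.67 with an SE of 0.40, a 95% interval of −1.61 to 0.27 and a limma adjusted p of 0.49. Without Ctrl 3 the difference was −1.15 and passed (limma adjusted p = 0.0496), a setting in which 6.71% of all tested genes were called. The TSS region gave 19.4, 19.0 and 3.22 RPM in Ctrl compared with 8.85, 5.94 and 13.8 RPM in Kmt5b sKO, with Ctrl 3 again the lowest library, and a log2 difference of −0.25 (SE 0.52). The antisense gene *Gm17276* overlaps *Notch3* over 21024 nt, and the authors counted sense reads only. The mural marker sum given above was higher in every Kmt5b sKO library, and its part in the *Notch3* values was not tested.

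The ligands differed in level far more than between genotypes. *Dll1* (chr17:15367354-15375976, minus strand, 11 exons), a delta-like ligand expressed by myogenic cells, was the most transcribed of them at 108, 93.3 and 53.4 TPM in Ctrl versus 92.1, 72.6 and 113 TPM in Kmt5b sKO. Its TSS values were 298, 199.9 and 131 RPM in Ctrl against 217, 162 and 260 RPM in Kmt5b sKO. The groups overlapped in both regions, with log2 differences of 0.16 in the gene body (SE 0.28) and 0.08 in the TSS region (SE 0.27), and Ctrl 3 was the lowest library of both. Without Ctrl 3 these differences were −0.14 and −0.22. *Jag1* (chr2:137081456-137116644, minus strand, 26 exons), a ligand of the jagged class, had the lowest mean of the 10 genes in the gene body, although *Hey1* was lower in Ctrl 3 and Kmt5b sKO 2. It stood at 5.64, 11.5 and 9.33 TPM in Ctrl compared with 13.6, 10.97 and 7.23 TPM in Kmt5b sKO. The order of its libraries was mixed, and the log2 difference was 0.26 with a 95% interval of −0.46 to 0.99. Its TSS region held few reads, at 3.87, 6.89 and 2.84 RPM in Ctrl versus 4.92, 3.96 and 6.90 RPM in Kmt5b sKO (log2 difference 0.24, SE 0.47).

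*Jag2* (chr12:112907819-112929776, minus strand, 26 exons), the other jagged ligand, had the clearest separation in the gene body. It was transcribed at 26.7, 22.3 and 14.7 TPM in Ctrl 1 to 3 against 29.7, 40.4 and 40.3 TPM in Kmt5b sKO 1 to 3. Every Kmt5b sKO library lay above every Ctrl library. The means of 21.2 ± 6.1 and 36.8 ± 6.1 TPM (SD, n = 3 each) stood beside a fitted 1.75-fold difference, a log2 difference of 0.81 with an SE of 0.24 and a 95% interval of 0.25 to 1.36. The unadjusted p was 0.011 by limma and the limma adjusted p was 0.16, so that *Jag2* was not called. By edgeR the unadjusted p was 0.0062 and the adjusted p 0.102, just above the threshold of 0.1. Leaving out single libraries moved the limma log2 difference between 0.57 and 0.99. In the TSS region the reads were few, at 4.12, 4.6 and 2.27 RPM in Ctrl compared with 3.93, 7.92 and 5.06 RPM in Kmt5b sKO, and the genotypes overlapped (log2 difference 0.56, SE 0.47, limma adjusted p = 0.76).

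*Rbpj* (chr5:53590368-53657362, plus strand, 13 exons), whose promoter is printed above, was the member whose TSS values did not overlap between genotypes. It held 55.7, 53.4 and 67.1 RPM in Ctrl 1 to 3 versus 82.6, 80.6 and 86.9 RPM in Kmt5b sKO 1 to 3. All 3 Kmt5b sKO libraries exceeded all 3 Ctrl libraries, and the Kmt5b sKO values lay within 1.08-fold of each other. The means of 58.7 ± 7.3 and 83.4 ± 3.3 RPM (SD, n = 3 each) gave a log2 difference of 0.51 with an SE of 0.21 and a 95% interval of 0.064 to 0.95, at an unadjusted p of 0.027 and a limma adjusted p of 0.36. *Rbpj* was therefore not called, and the log2 difference stayed between 0.44 and 0.61 when single libraries were left out. In the gene body the genotypes overlapped at 80.4, 78.5 and 92.9 TPM against 95.5, 104 and 90.8 TPM, with a log2 difference of 0.21 (SE 0.13, 95% interval −0.097 to 0.51). Of its TSS region 119 nt lie in the first exon.

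**Figure D2:**
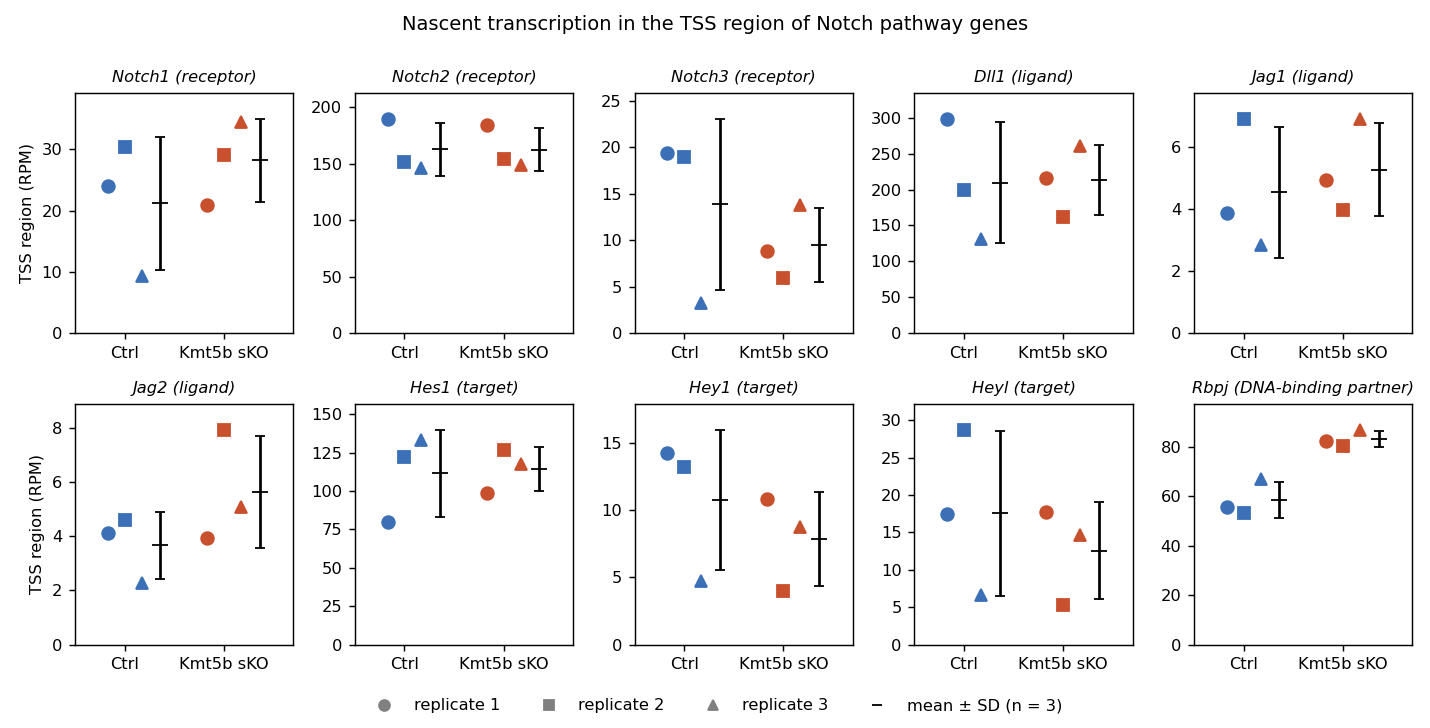
TSS values (RPM, vertical axis, each panel with its own scale from 0) of the 10 genes in the 3 Ctrl and 3 Kmt5b sKO libraries, with the replicate number as the symbol and the mean ± SD beside the points. The Kmt5b sKO values of *Rbpj* lie above its Ctrl values, while in the other 9 genes the genotypes overlap.

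Of the target genes, *Hes1* varied less between libraries in the gene body than *Hey1* and *Heyl* did. *Hes1* (chr16:30065340-30067796, plus strand, 4 exons), a repressor that responds directly to the cleaved receptor, was transcribed in the gene body at 213, 175 and 205 TPM in Ctrl 1 to 3 against 175, 242 and 256 TPM in Kmt5b sKO 1 to 3. The genotypes overlapped, and no library stood apart. The log2 difference was 0.17 (SE 0.19, 95% interval −0.27 to 0.60, limma adjusted p = 0.74), without a sign change when single libraries were left out. In the TSS region it held 79.6, 122 and 133 RPM in Ctrl compared with 99.0, 127 and 117 RPM in Kmt5b sKO, a log2 difference of 0.062 (SE 0.23, 95% interval −0.42 to 0.54). *Hey1* (chr3:8663359-8667256, minus strand, 5 exons), a repressor needed with *Heyl* to keep MuSCs undifferentiated, gave 32.7, 37.7 and 7.00 TPM in Ctrl versus 19.6, 6.99 and 29.7 TPM in Kmt5b sKO. Ctrl 3 and Kmt5b sKO 2 were both low and the other 4 libraries were higher, so that each genotype held high and low libraries. The log2 difference of *Hey1* was −0.36 in the gene body (SE 0.71) and −0.40 in the TSS region (SE 0.46). The TSS values were 14.3, 13.2 and 4.74 RPM in Ctrl against 10.8, 3.96 and 8.74 RPM in Kmt5b sKO. Leaving out Ctrl 3 moved the gene body difference to −1.10, which did not pass, and leaving out Kmt5b sKO 2 moved it to 0.22.

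*Heyl* (chr4:123233556-123249875, plus strand, 5 exons), a HEY-related repressor induced by Notch in MuSCs, had the most negative gene body difference of the set, although it did not pass. Its gene body values were 84.8, 92.2 and 20.4 TPM in Ctrl 1 to 3 compared with 39.1, 21.4 and 32.5 TPM in Kmt5b sKO 1 to 3. Ctrl 1 and Ctrl 2 lay above all Kmt5b sKO libraries and Ctrl 3 below them, so the genotypes overlapped. The means of 65.8 ± 39 and 31.0 ± 8.9 TPM (SD, n = 3 each) gave a log2 difference of −0.84 with an SE of 0.56, a 95% interval of −2.14 to 0.45 and a limma adjusted p of 0.54. Without Ctrl 3 the log2 difference was −1.54 and passed (limma adjusted p = 0.040), whereas without Ctrl 1 or Ctrl 2 it was −0.53 or −0.47 and did not. The TSS values, 17.4, 28.7 and 6.63 RPM in Ctrl versus 17.7, 5.28 and 14.7 RPM in Kmt5b sKO, overlapped as well (log2 difference −0.41, SE 0.48). *Notch3* and *Heyl* were the 2 of 10 genes called in the gene body without Ctrl 3, where 836 of all 12451 genes were called. Leaving out any of the other 5 libraries called 0 of 10, but 0 of all 12451 genes were called in 4 of these settings and 261 without Ctrl 2.

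**Figure D3:**
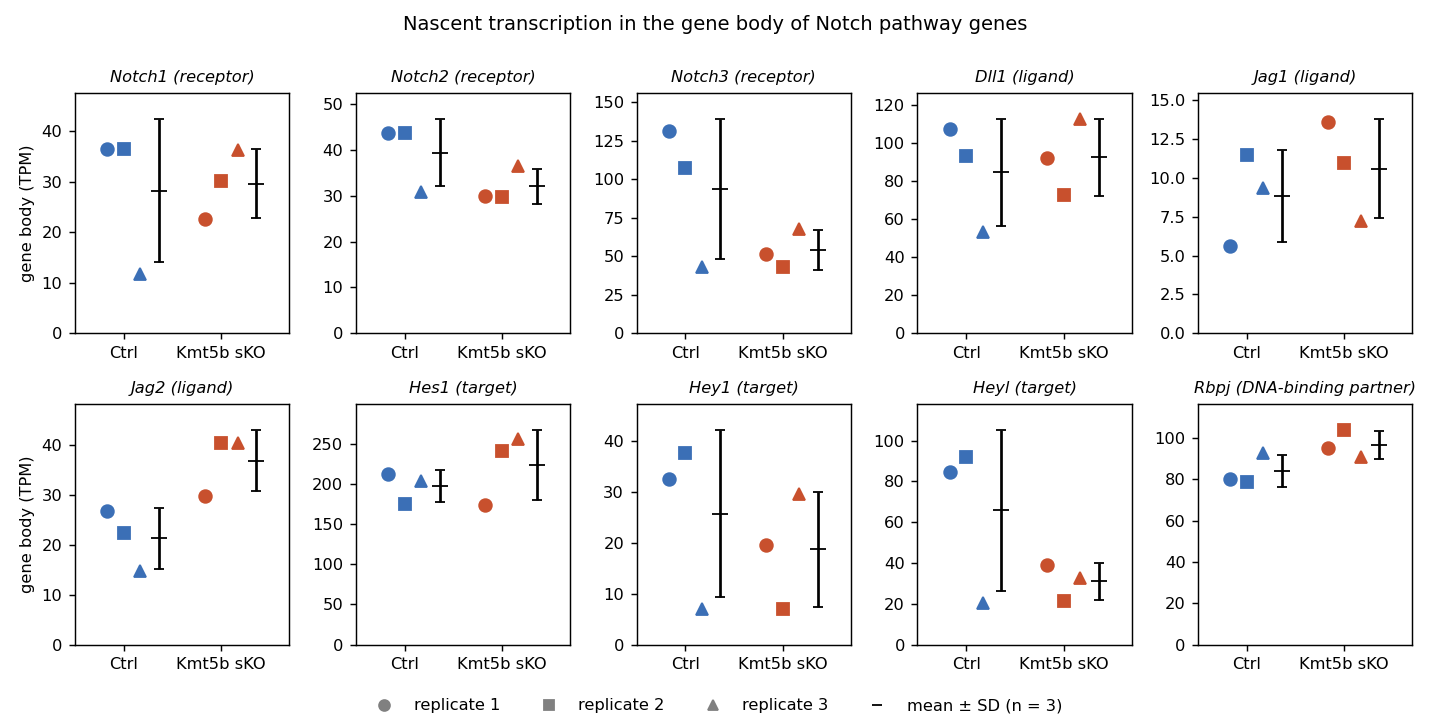
Gene body values (TPM, vertical axis, each panel with its own scale from 0) of the 10 genes by library, with the replicate number as the symbol and the mean ± SD beside the points. *Jag2* is higher in every Kmt5b sKO library, and the Ctrl 3 triangle of *Notch1*, *Notch3*, *Hey1* and *Heyl* lies far below the other Ctrl points.

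Because TPM divides by length, gene body levels can be set in order across genes. In Ctrl the mean levels ran from *Hes1* (198 ± 20 TPM, SD, n = 3) through *Notch3* (93.9), *Dll1* (84.7), *Rbpj* (83.9), *Heyl* (65.8), *Notch2* (39.5), *Notch1* (28.2), *Hey1* (25.8) and *Jag2* (21.2) to *Jag1* (8.82 ± 3.0 TPM). Only *Hes1* and *Notch3*, and *Jag2* and *Jag1*, did not overlap with their neighbour in this order. In Kmt5b sKO the order was *Hes1* (224), *Rbpj* (96.7), *Dll1* (92.6), *Notch3* (54.1), *Jag2* (36.8), *Notch2* (32.1), *Heyl* (31.0), *Notch1* (29.6), *Hey1* (18.7) and *Jag1* (10.6). There the ranges of *Hes1* and *Rbpj*, of *Dll1* and *Notch3*, and of *Notch3* and *Jag2* did not overlap. Over the 6 libraries, *Hes1* lay above 98.5% of tested genes in the gene body, *Rbpj* above 95.1%, *Dll1* above 94.9% and *Notch3* above 93.4%, while *Jag1* lay above 33.1%. *Hes1* had the highest and *Jag1* the lowest mean of the 10 genes in both genotypes.

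The 10 genes differed in how much they varied among libraries of a genotype. Among the 3 Ctrl libraries the SD of the log2 gene body value was 1.30 for *Hey1*, 1.21 for *Heyl*, 0.91 for *Notch1* and 0.85 for *Notch3*, and the median over tested genes was 0.24. A larger SD was seen in 0.61% of tested genes for *Hey1*, 0.84% for *Heyl*, 2.49% for *Notch1* and 3.27% for *Notch3*. *Hes1* (0.15) and *Rbpj* (0.13) lay below this median. Among the Kmt5b sKO libraries the SD of *Hey1* was 1.03, exceeded by 0.85% of tested genes, and that of *Heyl* was 0.44, exceeded by 10.4%, where the median was 0.18. There *Hes1* (0.30) lay above the median and *Rbpj* (0.099) below it. Ctrl 3 was the lowest of the 6 libraries for 4 of 10 genes in the gene body (*Notch1*, *Dll1*, *Jag2* and *Heyl*) and for 6 of 10 in the TSS region (*Notch1*, *Notch2*, *Notch3*, *Dll1*, *Jag1* and *Jag2*). It was also the library with the lowest sums of myoblast and differentiation markers given above, whose part in these values was not tested.

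**Figure D4:**
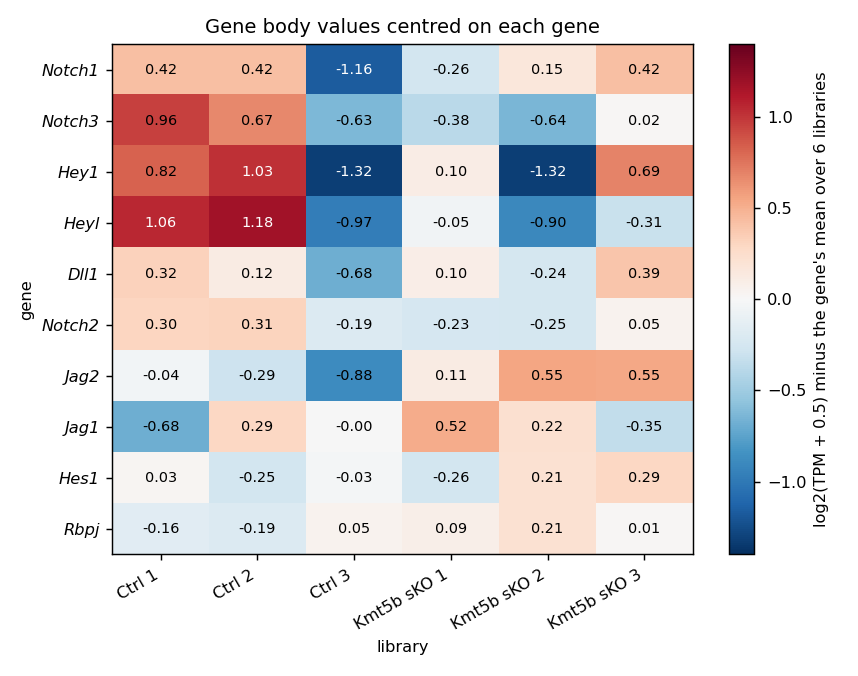
Gene body values of the 10 genes (rows) in the 6 libraries (columns), as log2(TPM + 0.5) minus the mean of the gene, so that red is above and blue below the average of a gene. *Hey1* and *Heyl* are above their mean in Ctrl 1 and Ctrl 2 and lowest in Ctrl 3 and Kmt5b sKO 2, whereas *Rbpj* stays within 0.21 of its mean.

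Likeness of profiles was measured as the root mean square difference of the centred log2 gene body values over the 6 libraries, where 0 is an identical profile. Within the set, *Heyl* and *Notch3* had a difference of 0.33, *Hey1* and *Heyl* of 0.48 and *Hes1* and *Rbpj* of 0.20. *Hes1* is no close match of *Rbpj*, which was only number 543 among the tested genes nearest to *Hes1*, while *Notch3* was number 10 among those nearest to *Heyl*. Over all tested genes the 2 nearest to each receptor were *Arhgef10l* (0.065) and *Fkbp8* (0.099) for *Notch1*, *Sfxn5* (0.035) and *Lnx2* (0.037) for *Notch2*, and *Cchcr1* (0.10) and *Troap* (0.13) for *Notch3*. For the ligands they were *Tsta3* (0.031) and *Polr1c* (0.063) for *Dll1*, *Cmklr1* (0.13) and *Cotl1* (0.14) for *Jag1*, and *Adamts7* (0.057) and *Grip1* (0.087) for *Jag2*. They were *Pfdn1* (0.020) and *Pramef8* (0.024) for *Rbpj*, and *Abcb9* (0.082) and *Entpd4b* (0.082) for *Hes1*. For *Hey1* they were *Sox8* (0.25) and *Tmub1* (0.25), and for *Heyl* *Cuta* (0.25) and *Ifitm2* (0.27). These are descriptions over 6 libraries searched over 12451 genes.

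The 10 genes differed widely in how polymerase was distributed along them. The pausing index, whose scale is fixed by the separate scaling of both regions, was highest for *Notch2* at 4.34, 3.47 and 4.73 in Ctrl against 6.16, 5.18 and 4.08 in Kmt5b sKO, above 91.6% of genes. *Dll1* followed with 2.77, 2.14 and 2.45 in Ctrl compared with 2.35, 2.24 and 2.30 in Kmt5b sKO. The other 8 genes lay below the median of all genes, 1.53. *Notch3* (0.074 to 0.20) and *Jag2* (0.13 to 0.21) had the lowest indices, with a mean above only 1.89% and 2.23% of genes. The receptors *Notch2* and *Notch3* therefore stood at opposite ends of the set, with means over the 6 libraries of 163 RPM (TSS) and 35.8 TPM (gene body) for *Notch2*, and 11.7 RPM and 74.0 TPM for *Notch3*. The TSS region depends on the isoform listed. RefSeq starts *Jag2* 281 nt, *Dll1* 153 nt and *Jag1* 124 nt into the 400 nt counted here. The part of these offsets in the indices was not tested.

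Between genotypes the pausing index of *Notch1* was 0.66, 0.84 and 0.79 in Ctrl versus 0.93, 0.96 and 0.95 in Kmt5b sKO. That of *Rbpj* was 0.69, 0.68 and 0.72 in Ctrl against 0.87, 0.77 and 0.96 in Kmt5b sKO. In both genes every Kmt5b sKO value exceeded every Ctrl value, yet neither passed, with log2 ratios of 0.33 (SE 0.26, 95% interval −0.25 to 0.91) and 0.31 (SE 0.26, 95% interval −0.28 to 0.89) and a limma adjusted p of 0.9997 for each. The median log2 ratio of the 10 genes was 0.14, and over all genes it was 0.053. The log2 ratios of the other 8 genes ranged from −0.20 (*Jag2*) to 0.44 (*Notch3*).

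**Figure D5:**
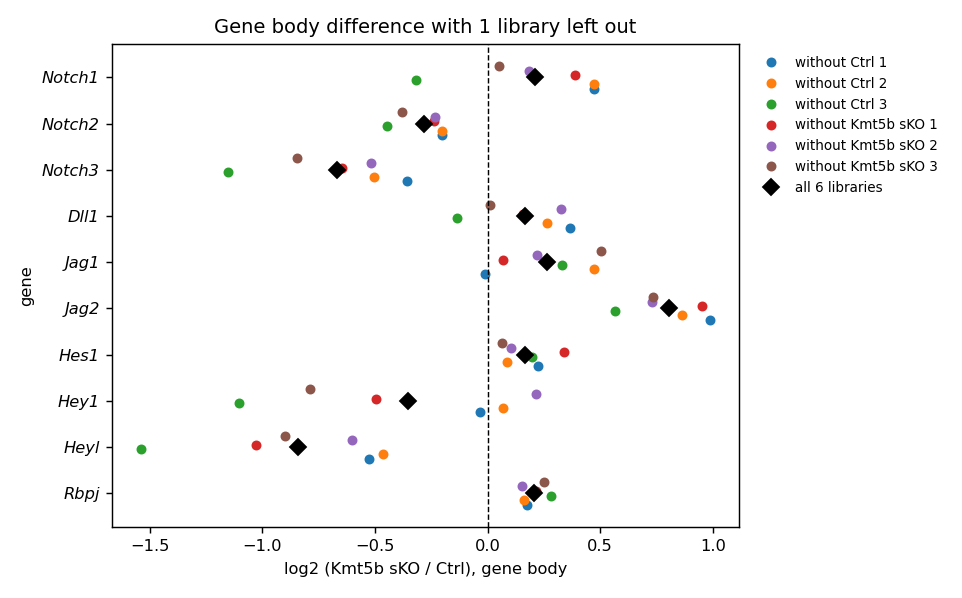
Gene body difference, as log2 of Kmt5b sKO over Ctrl (horizontal axis), for each of the 10 genes with all 6 libraries (black diamond) and with 1 library left out (coloured points). Without Ctrl 3 the differences of *Heyl* and *Notch3* move to −1.54 and −1.15 and those of *Notch1* and *Dll1* turn negative, while *Jag2* and *Rbpj* stay above 0.

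The wider pathway was examined through 52 further genes that encode other receptors, ligands, targets, coactivators, proteases, modifying enzymes and ubiquitin ligases. Of these, 48 were listed and 45 tested. *Dll4*, *Dlk1*, *Hes5* and *Dtx1* were not listed. *Notch4* and *Hes7* had TSS values below the filter, and *Fhl1* lies on chromosome X. In each region 0 of 45 passed by limma, against the shares of all genes given above. Before adjustment, 2 genes were higher and 0 lower in Kmt5b sKO at p under 0.05 in the TSS region, and 3 were higher and 1 lower in the gene body, against 11% and 15.9% of all tested genes in either direction. The median log2 difference was 0.020 in the gene body and 0.049 in the TSS region, with 24 of 45 and 27 of 45 above 0, where 53.8% and 58.2% of all tested genes were above 0. edgeR called *Neurl1b* in the gene body, 1 of 45, and 0 of 45 in the TSS region.

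*Fbxw7*, which encodes the ubiquitin ligase subunit that marks the intracellular domain for destruction, had the lowest p of these genes in the TSS region. It gave 5.33, 31.0 and 8.71 RPM in Ctrl compared with 23.9, 27.7 and 60.7 RPM in Kmt5b sKO, with Ctrl 2 inside the Kmt5b sKO range. The log2 difference was 1.55 (SE 0.47, limma adjusted p = 0.14), and without Ctrl 2 it was 2.25 and passed (limma adjusted p = 0.0036), where 3.28% of all tested genes were called. In its gene body the log2 difference was 0.87 (SE 0.31, limma adjusted p = 0.23). *Hes6*, a HES-family gene that promotes differentiation, was at 318, 259 and 250 RPM in Ctrl versus 438, 377 and 376 RPM in Kmt5b sKO, with no overlap (log2 difference 0.53, limma adjusted p = 0.33). Next in this region came *Neurl1a*, of the neuralized ligases that act on ligands, with a log2 difference of 0.64 (limma adjusted p = 0.54).

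In the gene body the 3 genes with the lowest p were all of the neuralized family. *Neurl1a* stood at 76.4, 74.4 and 46.6 TPM in Ctrl against 102, 88.2 and 122 TPM in Kmt5b sKO, without overlap (log2 difference 0.68, SE 0.22, limma adjusted p = 0.20). *Neurl3* was low in all libraries, at 0.41 to 1.15 TPM in Ctrl compared with 1.28 to 4.52 TPM in Kmt5b sKO (log2 difference 1.32, SE 0.43, limma adjusted p = 0.20). *Neurl1b* was at 5.25, 5.39 and 1.34 TPM in Ctrl versus 1.25, 0.75 and 1.18 TPM in Kmt5b sKO, without overlap. Ctrl 3 lay just above the mutant libraries, whereas it lay among them for *Notch3* and below them for *Heyl*. In the gene body 21.4% of all tested genes did not overlap. The log2 difference of *Neurl1b* was −1.36 (SE 0.46, limma adjusted p = 0.21). It passed without Ctrl 3 at −1.92 (limma adjusted p = 0.027) and by edgeR with all libraries at −1.88 (adjusted p = 0.087). Without Ctrl 3, *Dtx4* (−1.57) and *Kat2b* (−0.69) were called too, which made 3 of 45, near the 6.71% of all tested genes called in that setting.

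A further list held 6 genes taken as bound by intracellular Notch, *Pax7*, *Calcr* and the collagen genes *Col5a1*, *Col5a3*, *Col6a1* and *Col6a2*. Binding was not measured in these data. *Calcr* was not listed, and 0 of the other 5 passed in either region when all libraries were used. With all libraries the 5 had log2 differences below 0 in both regions. Over all tested genes 53.8% were above 0 in the gene body and 58.2% in the TSS region. The median of the 5 was −0.73 in the gene body and −0.38 in the TSS region, where the medians over all tested genes were 0.02 and 0.08. The list was chosen with earlier results of these data known, and both regions were read in the same libraries. The shared direction is therefore a description and not a test. In the gene body the differences were −1.42 for *Col6a2* (SE 0.63, limma adjusted p = 0.33), −0.88 for *Col6a1*, −0.73 for *Col5a3*, −0.41 for *Pax7* and −0.23 for *Col5a1*. Leaving out single libraries, an alternative chosen after seeing the data, turned the sign of *Col5a1* in the gene body (0.037) and of *Col6a1* in the TSS region (0.67) without Ctrl 2, and of *Col5a1* in the TSS region (0.047) without Kmt5b sKO 2. Without Ctrl 3, *Col5a3* (−1.23), *Col6a1* (−1.67) and *Col6a2* (−2.13) passed in the gene body (limma adjusted p = 0.086, 0.052 and 0.052). That setting called 6.71% of all tested genes. In the gene body Ctrl 2 had the highest value of every collagen gene on the list, whereas *Pax7* was highest in Ctrl 1. *Col5a1* was at 47.9 TPM in Ctrl 2, where the other 5 libraries held 26.0 to 28.9 TPM. *Col5a3*, *Col6a1* and *Col6a2* were at 29.6, 11.6 and 8.68 TPM in Ctrl 2, and their next highest values, in Ctrl 1, were 17.6, 5.48 and 3.73 TPM. The negative differences of the collagen genes thus share a high Ctrl 2 library. *Col6a2* had, with all libraries, an unadjusted p of 0.033 by limma in the TSS region, and no other of the 5 was under 0.05. *Col6a2* rested there on low values of 0 to 8.62 RPM. Its gene body gave 3.73, 8.68 and 0.92 TPM in Ctrl against 0.97, 0.55 and 1.38 TPM in Kmt5b sKO. *Pax7* was at 53.7, 36.1 and 26.0 TPM in Ctrl compared with 25.5, 29.5 and 28.3 TPM in Kmt5b sKO, and in both genes Ctrl 3 lay within the range of the mutant libraries.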

How the data were processed

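PRO-seq values of 3 Ctrl and 3 Kmt5b sKO libraries were analysed. The authors processed the reads with FastQC 0.11.8, Trimmomatic 0.39, STAR 2.6.1d (GRCm38, 1 random position for a read with several) and Picard 2.18.16, counted sense-strand reads per isoform of each gene, and listed 1 isoform per gene. The gene body values that the authors deposited are TPM. The TSS values they deposited are headed TPM but behave as RPM, reads without division by length, which is a constant at 400 nt. Genes on X and Y or with a mean under 0.5 in either region were left out. log2(value + 0.5) was tested with limma 3.58.1 (trend) under R 4.3.3, without terms other than genotype, at a Benjamini-Hochberg adjusted p under 0.1, and fold changes on this scale understate those of low genes. Pausing indices were tested as log2 ratios without the 0.5. Read counts recovered from the deposited values (whole reads for 100% of TSS values and 97.7% to 99.8% of gene body values under 2000 nt) were tested with edgeR 4.0.16. The replicates are described as biological, but the labels name no animals, so the p-values measure the spread between these samples.

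Named were all 10 genes and, of the other lists, those called in either region and the 3 with the lowest p in each. Genes called only under an alternative, and all 5 tested genes of the bound list, were named after their values were seen. The members and lists were chosen with earlier results of these data known. Other pseudocounts, filters, variance models, normalizations, tools, a replicate block and leaving out each library were tried. The tests were checked on simulated data. Coordinates are those listed, with 14528 of 14546 identifiers found in an annotation of GRCm38, and 9 of the 10 genes at the same start and end. The annotated start of Notch3 lies 28 nt away. No columns were left without a sample. Python 3.11.15, numpy 2.4.6, pandas 2.3.3 and matplotlib 3.10.9 were also used.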

Additional observations from a re-analysis of the deposited data

How the results depend on the processing

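With all 6 libraries, 0 of 10 genes passed in either region or by pausing index under a pseudocount of 1, no filter on low values, eBayes without trend, quantile normalization, edgeR on recovered reads or a replicate block (pseudocount and edgeR for both regions only). By pausing index 0 genes of the whole table passed in any setting, and in the TSS region 0 of 14068 passed without the filter and 0 of 12451 without trend, so the 0 of 10 says nothing there. Quantile normalization turned the TSS log2 difference of Notch2 to −0.036, and edgeR gave −0.075 for Notch2, −0.034 for Dll1 and −0.047 for Hes1, all near 0. Of the other pathway genes, edgeR called 1 in the gene body instead of 0. Same-numbered libraries did not deviate together (correlations −0.15, −0.17 and −0.33 in the gene body and −0.034, −0.13 and −0.16 in the TSS region). With 3 libraries per genotype this cannot show whether the numbers mark shared animals, days or batches, which the labels do not say. With the replicate block 0 of 12451 genes were called in each region instead of 207 and 372.

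Leaving out single libraries called 0 to 2 of the 10 genes in the gene body, the 2 without Ctrl 3, and 0 in the TSS region and by pausing index. Over all 12451 genes these settings called 0 in the gene body in 4 of 6, 261 without Ctrl 2 and 836 without Ctrl 3, and 1 to 408 in the TSS region. The other pathway genes called ranged from 0 to 1 in the TSS region (1 without Ctrl 2) and from 0 to 3 in the gene body (3 without Ctrl 3). The log2 differences that changed sign ranged in the gene body from −0.14 to 0.37 for Dll1, −1.10 to 0.22 for Hey1, −0.011 to 0.50 for Jag1 and −0.32 to 0.47 for Notch1. In the TSS region the ranges were −0.22 to 0.37 for Dll1, −0.16 to 0.21 for Hes1, −0.88 to 0.0036 for Hey1, −0.97 to 0.10 for Heyl, −0.012 to 0.56 for Jag1, −0.093 to 0.12 for Notch2 and −1.05 to 0.16 for Notch3. By pausing index they were −0.18 to 0.0041 for Dll1, −0.39 to 0.060 for Hes1, −0.27 to 0.25 for Hey1 and −0.47 to 0.23 for Jag1. The cause was not tested. The fewest TSS reads in a library were 6 for Jag1 and Hey1, 8 for Jag2 and Heyl and 9 for Notch3.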
